A study of Mus musculus with 6 samples.

Results

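Cd5 and Cd6 are neighbouring genes whose products sit on the surface of T cells and tune the response of the T cell antigen receptor (TCR). They were taken by gene symbol as 2 of the 48397 rows of a count table made from stage 0 invariant natural killer T (iNKT) cells, and both passed the filter on low counts. The table holds 3 libraries from BALB/c mice, labelled WT, and 3 from SKG mice, which carry a hypomorphic mutation of the kinase Zap70 on the same BALB/c background. The mutation is in the germline, so every cell of an SKG mouse carries it. About 1000 cells went into a library, sorted from thymi of 3 mice (8 to 10 weeks of age) that were pooled. The gate was positive for the PBS57-loaded CD1d tetramer, CD24 and CD69 and negative for CD44 and CD8, with CD4 low or negative. A replicate is therefore a pool of mice, and p-values measure the spread between such pools. The comparison asks whether these receptors, read as RNA, differ in the earliest iNKT cells when TCR signalling is weakened.

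CD5 and CD6 are transmembrane glycoproteins built from scavenger receptor cysteine-rich (SRCR) domains, with long cytoplasmic tails that are phosphorylated when the TCR is engaged. CD5 dampens TCR signalling in thymocytes, and its surface level is set during positive selection by how strongly the TCR responds to self. CD6 binds CD166 (encoded by Alcam), recruits adaptors such as SLP-76 to its tail, and also follows the strength of selection at the protein level.

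Both genes lie on the minus strand of chromosome 19 of GRCm38 and encode proteins. Cd5 (ENSMUSG00000024669.8) spans 10717116 to 10739002 and Cd6 (ENSMUSG00000024670.17) spans 10789341 to 10830058, with 50338 bases between them. The annotation gives 4 transcripts for Cd5 and 6 for Cd6, and 0 other genes have exons that overlap those of either gene. The counts are per gene, so transcripts that include or skip an exon cannot be told apart. The proximal promoter of Cd5 is shown because it was the only promoter matched for these genes. It covers 250 bases before to 50 after the RefSeq start, at chr19:10738925-10739224 on the minus strand of GRCm38.p6, with matches to the ETS core GGAA or its complement TTCC in capitals.
Cd5 promoter: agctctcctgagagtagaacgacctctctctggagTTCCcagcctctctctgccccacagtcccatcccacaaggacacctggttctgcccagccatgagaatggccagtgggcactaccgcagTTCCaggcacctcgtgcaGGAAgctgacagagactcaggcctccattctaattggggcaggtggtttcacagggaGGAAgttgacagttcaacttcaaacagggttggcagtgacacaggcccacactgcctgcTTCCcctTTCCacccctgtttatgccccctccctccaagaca
The ETS core was found 6 times on both strands, and 96.0% of 32851 RefSeq promoter windows of the same length hold it. The E-box CANNTG was found 2 times (72.3% of windows), the RUNX core TGTGGT 0 times (16.8%) and the TATA box TATAAA 0 times (13.6%), and no match overlapped a match to another motif. No promoter of Cd6 was matched.

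The difference in Cd5 RNA between the genotypes was smaller than the spread between libraries, whereas the mean of Cd6 was 1.42-fold higher in SKG with libraries that overlapped. Neither gene passed the threshold for differential expression. Levels are in CPM, the standard counts-per-million unit, with library sizes scaled by TMM (which evens out library composition). A gene was called where edgeR's quasi-likelihood F test gave a Benjamini-Hochberg adjusted p (FDR) under 0.1 and SKG and BALB/c differed by 1.5-fold or more. That test called 0 of 12312 genes (0%), while 671 (5.45%) had an unadjusted p under 0.05. The latter comprised 378 genes with higher (3.07%) and 293 with lower means in SKG (2.38%). On the same counts limma-voom called 0 genes and DESeq2 called 370 without and 231 with shrunken fold changes, and neither Cd5 nor Cd6 was among them.

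Cd5 was counted 26442, 21176 and 24665 times in BALB/c replicates 1 to 3 and 25143, 20413 and 22585 times in SKG replicates 1 to 3. In CPM this was 641, 571 and 546 in BALB/c and 624, 525 and 625 in SKG. The highest library was BALB/c replicate 1 and the lowest SKG replicate 2, and the groups overlapped over nearly their whole range. BALB/c averaged 586 ± 49.3 CPM and SKG 591 ± 57.2 (SD over 3 libraries each). SKG over BALB/c was 1.01-fold, with a 95% interval from 0.804 to 1.27 (log2 0.01, standard error 0.14, adjusted p = 0.999 from edgeR). Differences within this interval, in either direction, remain compatible with the data, and the p does not show equal levels.

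Cd6 was counted 28254, 32066 and 27516 times in BALB/c and 47702, 39793 and 30659 times in SKG. In CPM it was at 685, 864 and 609 in BALB/c replicates 1 to 3 and at 1184, 1024 and 848 in SKG replicates 1 to 3. SKG replicates 1 and 2 lay above all BALB/c libraries, while SKG replicate 3 was just below BALB/c replicate 2. BALB/c averaged 720 ± 131 CPM and SKG 1018 ± 168 (SD over 3 libraries each). The fitted fold change was 1.42, with a 95% interval from 1.03 to 1.94 (log2 0.50, standard error 0.19, adjusted p = 0.871 from edgeR). The unadjusted edgeR p of Cd6 was 0.0356, and 498 genes (4.04% of those tested) had a smaller one. With 1 library left out, the smallest such p was 0.0181, when SKG replicate 3 was dropped, and the largest was 0.117, when SKG replicate 1 was dropped. It was above 0.05 without BALB/c replicate 1 (0.0856), BALB/c replicate 3 (0.107) or SKG replicate 2 (0.0803) as well.

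**Figure D1:**
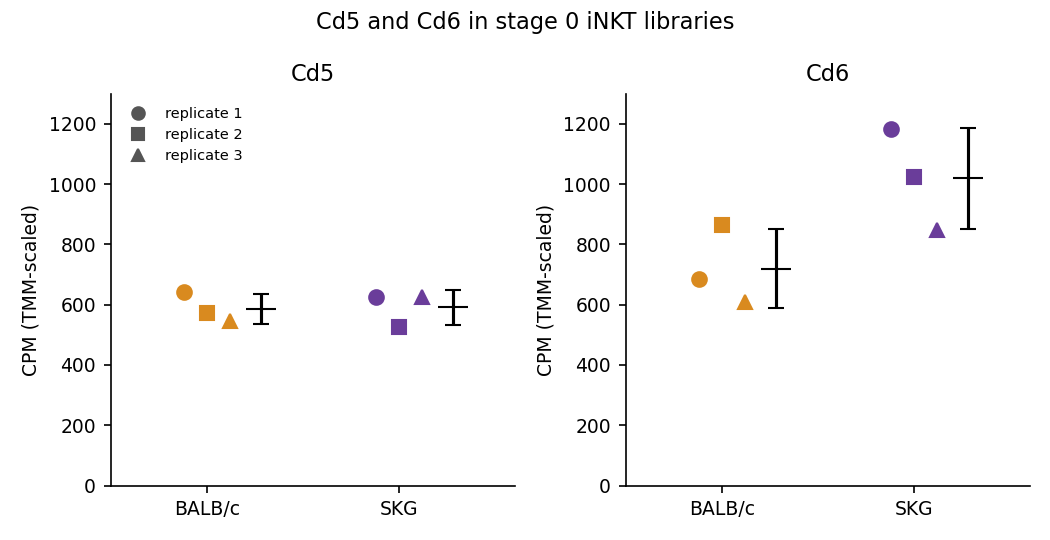
CPM (TMM-scaled) of Cd5 (left) and Cd6 (right) in each of the 6 libraries by genotype. Points are libraries, with the replicate shown by the shape, and bars give the mean and SD of 3 libraries. Cd5 lies between 525 and 641 CPM in both genotypes, while Cd6 reaches 1184 CPM in SKG, with SKG replicate 3 (848) below BALB/c replicate 2 (864).

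Cd6 varied more than Cd5 among libraries of one genotype. The coefficient of variation of CPM within a genotype, pooled over both genotypes, was 9.07% for Cd5 and 17.4% for Cd6. Among 2678 tested genes at 100 CPM or more the median was 21.03%, and 5.71% of these genes had a smaller value than Cd5, against 36.6% for Cd6. The error from sampling reads is small at these depths, since the lowest count of either gene in any library was 20413. PCR copies cannot be told from separate molecules, so the error from sampling molecules before amplification is not known. Libraries held 37176544 to 43115544 counts, and genes with at least 10 counts numbered 10835 to 14791. The library with the highest Cd6 (SKG replicate 1) had the most genes detected, 14791, and the library with the lowest Cd6 (BALB/c replicate 3) had the second most, 14339.

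**Figure D2:**
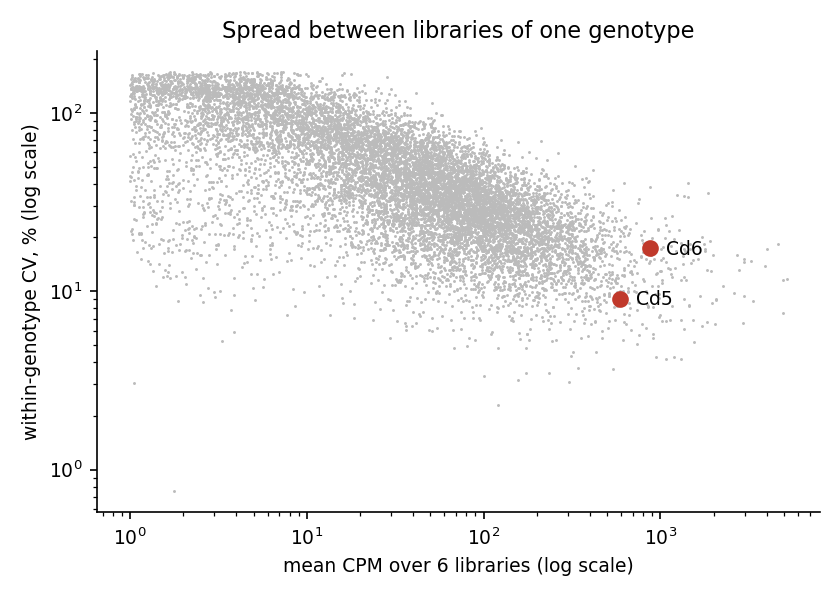
Within-genotype coefficient of variation (%) against mean CPM over 6 libraries, both on log scales, for tested genes at a mean of 1 CPM or more (grey) and for Cd5 and Cd6 (red). Cd5 (9.07%) lies in the lower part of genes of its abundance, and Cd6 (17.4%) lies higher up.

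Levels of different genes can be compared only per length. Per kb of annotated exon (4928 bases for Cd5, 7968 for Cd6), Cd5 was at 119 ± 10.00 CPM per kb in BALB/c and 120 ± 11.6 in SKG (SD, n = 3 libraries each). Cd6 was at 90.3 ± 16.5 CPM per kb in BALB/c and 128 ± 21.1 in SKG (SD, n = 3 each). On this scale Cd6 was above Cd5 in 0 of 3 BALB/c and 2 of 3 SKG libraries. The exon lengths include transcripts with retained introns for both genes, and with the longest coding transcript instead (2989 bases for Cd5, 3032 for Cd6) Cd6 was above Cd5 in 3 of 3 libraries of each genotype. Which of the genes has more RNA molecules per cell therefore depends on the length used, whereas the comparison of the ratio between genotypes does not.

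The ratio of Cd5 to Cd6 counts within a library does not depend on how libraries are scaled. It was 0.936, 0.660 and 0.896 in BALB/c replicates 1 to 3 and 0.527, 0.513 and 0.737 in SKG replicates 1 to 3. BALB/c replicate 2 was below SKG replicate 3, and the other BALB/c libraries were above every SKG library. BALB/c averaged 0.831 ± 0.149 and SKG 0.592 ± 0.125 (SD over 3 libraries each). In log2 units the difference, SKG minus BALB/c, was -0.49, with p = 0.2 in a two-sided exact permutation test. With 3 libraries against 3 this test cannot give a p below 0.1. A difference between the fold changes of both genes could therefore not pass this test.

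Both genes were also set against the summed counts of the CD3 chains Cd3d, Cd3e, Cd3g and Cd247, the signalling subunits of the TCR complex, because each T cell carries them. In bulk RNA, fewer cells of a type and less RNA per cell cannot be told apart. Cd5 per CD3 count was 0.203, 0.231 and 0.212 in BALB/c and 0.261, 0.206 and 0.214 in SKG, and the libraries overlapped (two-sided exact permutation test, p = 0.6). Cd6 per CD3 count was 0.217, 0.349 and 0.237 in BALB/c and 0.496, 0.402 and 0.290 in SKG. Scaled in this way Cd6 was 1.48-fold higher in SKG, and SKG replicate 3 was again below BALB/c replicate 2 (two-sided exact permutation test, p = 0.2). Adjusted over the 3 ratios by Benjamini-Hochberg, the p-values were 0.3 for Cd5 to Cd6, 0.6 for Cd5 per CD3 and 0.3 for Cd6 per CD3.

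**Figure D3:**
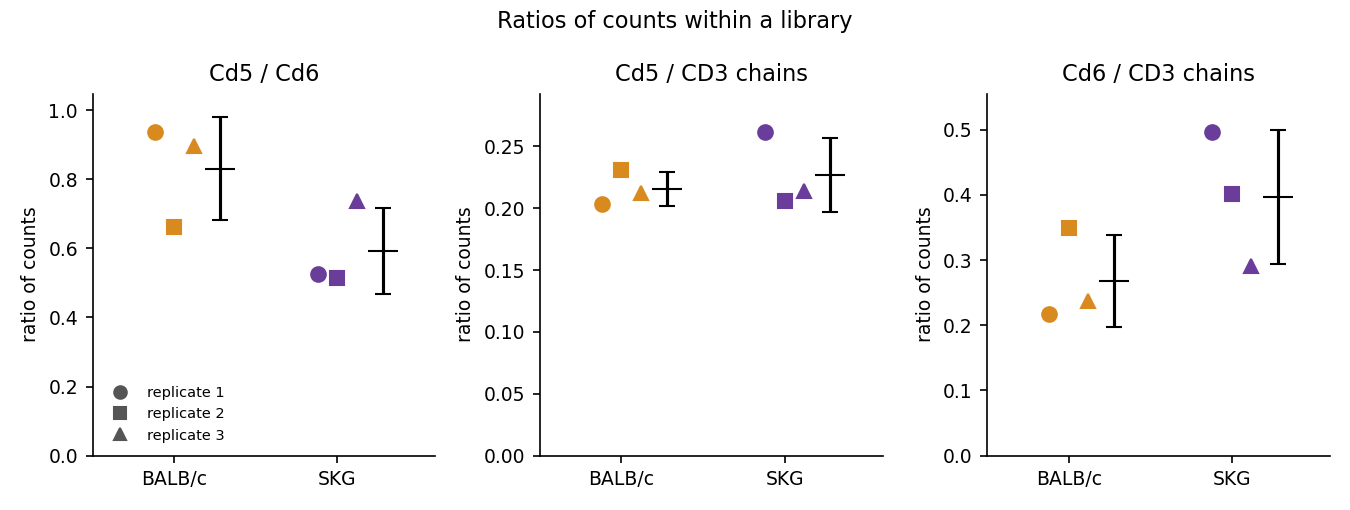
Ratios of counts within each library, by genotype, for Cd5 over Cd6 (left), Cd5 over the summed CD3 chains (middle) and Cd6 over the summed CD3 chains (right). Points are libraries, shapes give the replicate, and bars give the mean and SD of 3 libraries. Cd5 per CD3 count overlaps between genotypes (0.203 to 0.261), while Cd6 per CD3 count reaches 0.496 in SKG.

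Transcripts that report TCR signal strength included several with lower values in SKG. Of 9 tested readouts, 3 were lower and 1 was higher in SKG at an unadjusted edgeR p under 0.05, and 0 passed the FDR. Their median log2 fold change was -0.80, against -0.02 over all genes tested. For 6 of the 9 readouts the BALB/c and SKG libraries had no overlap, against 13.9% of all tested genes. Of these, 5 were higher in BALB/c (7.12% of all tested genes) and 1 in SKG (6.77%). The 5 include Ly6c1, and the 1 is Ly6c2. Ly6C protein runs inversely to self-reactivity in CD4 T cells, so the median and these counts pool genes with opposite readings. The study named Egr1 and Egr2 from these same libraries, so their direction is not independent evidence.

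Egr1, an immediate early transcription factor gene, was at 2012, 1738 and 1604 CPM in BALB/c and 964, 977 and 885 in SKG. Its fold change was 0.528 with a 95% interval from 0.426 to 0.655 (adjusted p = 0.447 from edgeR). Cd69, an early activation marker and part of the sorting gate, was at 312, 391 and 354 CPM in BALB/c and 152, 179 and 250 in SKG. Its fold change was 0.549, with an interval from 0.381 to 0.791 (adjusted p = 0.686 from edgeR). Egr2, a factor needed for iNKT development, was at 1547, 1097 and 1408 CPM in BALB/c and 883, 956 and 493 in SKG. Its fold change was 0.576, with an interval from 0.365 to 0.907 (adjusted p = 0.834 from edgeR). The lowest BALB/c library of each of these genes exceeded the highest SKG library. The interval of Cd5 starts at 0.804, above the ends of those of Egr1 and Cd69, and overlaps that of Egr2. These 3 genes had the lowest unadjusted edgeR p-values of the readouts. The difference between Cd5 and these genes was not itself tested.

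Ly6c2, singled out after its values were seen because Ly6C protein runs inversely to self-reactivity in CD4 T cells, was the readout with a higher mean in SKG at an unadjusted edgeR p under 0.05. It had 40, 75 and 105 counts in BALB/c and 168, 447 and 547 in SKG. Its near-identical copy Ly6c1 had 59, 117 and 132 counts in BALB/c and 36, 0 and 1 in SKG. Reads from such a pair can be assigned to either copy or lost at the mapping filter, so both values are uncertain. Nr4a2, also named after its values were seen, is an orphan nuclear receptor gene induced by the TCR and had 7108, 4078 and 2451 counts in BALB/c and 975, 1842 and 93 in SKG, with an adjusted p from edgeR of 0.947. The remaining readouts are also given after their values were seen, and their libraries overlapped. Nr4a1 had 17529, 9151 and 7065 counts in BALB/c and 6963, 12735 and 7282 in SKG. Nr4a3 had a higher mean in SKG, with 5, 128 and 245 counts in BALB/c and 172, 492 and 589 in SKG. Egr3 also had a higher mean in SKG, with 2, 0 and 45 counts in BALB/c and 78, 19 and 45 in SKG.

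The enzymes and adaptors that work with CD5 and CD6 in the cell were measured in every library. Of 21 distinct partner genes, all tested, 13 had a log2 fold change above 0 and 8 one below it, where 49% of all tested genes were above 0. By edgeR 0 of the 21 had an unadjusted p under 0.05 and 0 passed the FDR. Their median log2 fold change was 0.13, and they ranged from -0.56 to 0.83. The libraries did not overlap for 1 of the 21, against 13.9% of all tested genes. This was Pik3r1, a regulatory subunit of PI3 kinase, with means of 32.9 ± 6.91 CPM in BALB/c and 22.3 ± 2.87 in SKG (SD over 3 libraries each). The CD6 partners summed to 6112 to 6378 CPM in BALB/c and 6508 to 7051 in SKG, without overlap. Sums of the CD5 partners overlapped, at 3608 to 4178 CPM in BALB/c and 3926 to 4782 in SKG. Neither sum was tested.

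Zap70, the kinase mutated in SKG, was at 498, 472 and 374 CPM in BALB/c and 322, 338 and 409 in SKG, which is -0.33 on the log2 scale (adjusted p = 0.953 from edgeR). The mutation is not read out by gene counts, so this level does not check the labels. Rasa1, a Ras GTPase-activating protein that binds CD5, was at 113 ± 22.9 CPM in BALB/c and 165 ± 41.3 in SKG (SD over 3 libraries each). The adaptor Grb2 was at 174 ± 31.0 CPM in BALB/c and 214 ± 19.7 in SKG (SD over 3 libraries each). The libraries of Zap70, Rasa1 and Grb2 overlapped between the genotypes.

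Among ligands proposed for these receptors, Alcam was the one gene that passed the filter on low counts. It was at 55.9, 108 and 82.8 CPM in BALB/c and 89.9, 117 and 74.3 in SKG, with overlapping libraries (0.19 on the log2 scale, adjusted p = 0.991 from edgeR). Cdcp1, a second ligand of CD6, had 6 counts in BALB/c replicate 2 and 0 in the other libraries. Cd72, proposed for CD5, had 329 and 36 counts in BALB/c replicates 2 and 3 and at most 6 elsewhere, and Cd5l had 0 in all libraries. Of 14 other genes with SRCR domains, 2 were tested, and both had overlapping libraries. Lgals3bp was at 68.1 ± 46.8 CPM in BALB/c and 42.5 ± 8.60 in SKG (SD over 3 libraries each). Prss12 had 0 counts in 3 of the 6 libraries.

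Of 15 T cell surface genes, all tested, 5 had a higher and 10 a lower mean in SKG, 0 had an unadjusted p under 0.05, and the median log2 fold change was -0.11. Cd247, the zeta chain, was at 161 ± 50.3 CPM in BALB/c and 222 ± 36.97 in SKG (SD over 3 libraries each). Cd3g was at 1046 ± 70.8 (SD, n = 3) and 911 ± 69.2 (SD, n = 3), Cd3e at 928 ± 153 (SD, n = 3) and 987 ± 69.5 (SD, n = 3), and Cd3d at 598 ± 135 (SD, n = 3) and 498 ± 117 (SD, n = 3), in the same order. Cd2, an adhesion receptor that binds CD48, was at 971 ± 95.6 (SD, n = 3) and 843 ± 49.4 (SD, n = 3), and it was the 1 gene of the 15 whose libraries did not overlap, against 13.9% of all tested genes.

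**Figure D4:**
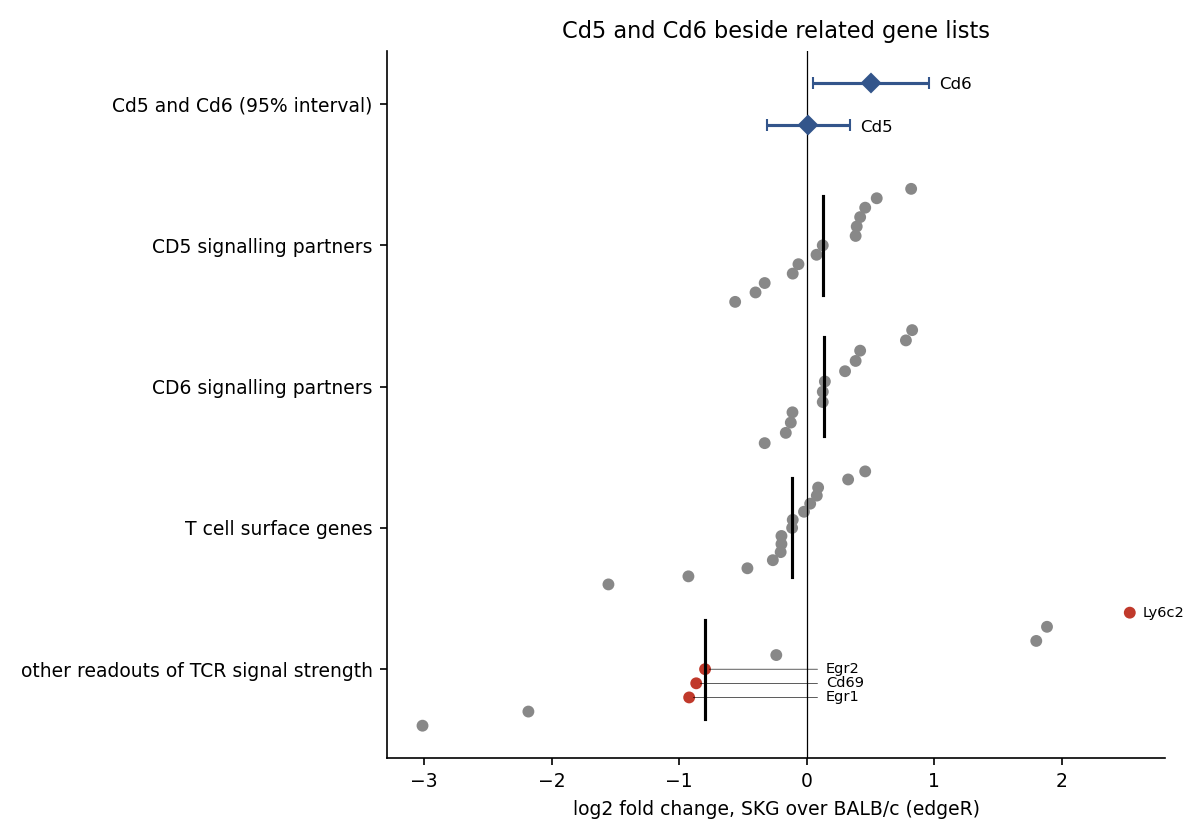
Log2 fold change (SKG over BALB/c, edgeR) of Cd5 and Cd6 with 95% intervals (blue) and of the tested genes of 4 lists. Each dot is a gene, vertical lines are list medians, and red dots have an unadjusted p under 0.05. Cd6 (0.50) lies to the right of the medians of both partner lists. The point estimates of Egr1, Cd69 and Egr2 lie left of the interval of Cd5, but the interval of Egr2, not drawn, overlaps it.

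Within 150 kb of either gene, 10 of 17 counted genes were tested, of which 1 had a log2 fold change above 0 and 9 one below it (median -0.30), where 49% of all tested genes were above 0. A430093F15Rik, a transcript on the opposite strand between Cd5 and Cd6, was at 137 ± 43.4 CPM in BALB/c and 106 ± 9.78 in SKG (SD over 3 libraries each). Vps37c, an ESCRT subunit gene next to Cd5, was at 82.5 ± 51.0 in BALB/c and 48.7 ± 9.03 in SKG (SD over 3 libraries each). Libraries of both overlapped. Tmem132a, beyond Cd6, was the 1 neighbour of 10 with an unadjusted edgeR p under 0.05, against 5.45% of all tested genes, at 106, 161 and 32 counts in BALB/c and 0 in each SKG library (adjusted p = 0.619 from edgeR). Fitted log2 fold changes of the remaining tested neighbours Tmem138, Cyb561a3, Tkfc, Ddb1, Tmem109, Prpf19 and Ccdc86 ran from -0.54 for Tmem138 to 1.15 for Tkfc, and the libraries of all 7 overlapped.

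The genes most like each receptor were sought by the root mean square difference of log2 CPM, centred on each gene's mean, over the 6 libraries, among 10484 other tested genes with counts in every library. For Cd5 these were Gm5527, 1810022K09Rik, Ndufv1 (complex I), Ptprc (CD45) and Prkar1a (a regulatory subunit of protein kinase A), with differences from 0.05 to 0.07. Ptprc, the pan-leukocyte phosphatase, was at 1811 ± 26.0 CPM in BALB/c and 1845 ± 172 in SKG (SD over 3 libraries each). For Cd6 they were Dis3 (an exosome nuclease), Exoc5, Ide (insulin-degrading enzyme), Sp1 and Ttc5, with differences from 0.11 to 0.13. Cd6 was the gene in place 2672 by likeness to Cd5, and Cd5 was in place 948 by likeness to Cd6, so many genes were closer to either receptor than they were to each other. The difference between the receptors, 0.34, was still below the median over the genes compared, 0.52 for Cd5 and 0.63 for Cd6. The likeness was chosen among many genes over 6 libraries and is a description.

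The labelled cell type was checked against its markers. Zbtb16 (PLZF), Egr2, Cd24a, Cd69, Cd3e and the invariant segment Trav11d were counted in all libraries. Trav11, the remaining marker of the 7 listed, had 7, 1 and 4 counts in BALB/c and 5, 7 and 3 in SKG. It did not pass the filter on low counts. The summed markers were at 2587 to 3160 CPM in BALB/c and 2036 to 2381 in SKG. Egr2 and Cd3e, the latter shared by T cells in general, made up most of these sums. Cd69 and Egr2 were the members with an unadjusted edgeR p under 0.05. Cd24a, which encodes the gate marker CD24, was at 52.4, 7.31 and 15.6 CPM in BALB/c and 31.9, 88.6 and 90.7 in SKG, with overlapping libraries (adjusted p = 0.959 from edgeR). Double-positive thymocyte markers (7 genes) summed to 66.5 to 437 CPM in BALB/c and 71.1 to 221 in SKG, with the highest sum in BALB/c replicate 1, which also had the highest Cd5. Without that library the log2 fold change was 0.09 for Cd5 and 0.47 for Cd6. B cell markers summed to 6.87 to 94.9 CPM in BALB/c and 4.59 to 45.0 in SKG. Myeloid markers reached 145.9 CPM at most, in SKG replicate 3, and erythroid markers 69.7, in BALB/c replicate 1. Thymic epithelial markers reached 105.95 CPM, in BALB/c replicate 2, and regulatory T cell markers 293.4, in SKG replicate 3. For none of these lists did the sums separate the genotypes. Without SKG replicate 3, which had the lowest Cd6 of the SKG libraries, the log2 fold change was -0.02 for Cd5 and 0.63 for Cd6. Foxp3, which defines regulatory T cells, had 20 counts in SKG replicate 1 and 0 elsewhere. The part of other cells in the levels of Cd5 and Cd6 was not tested.

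The size of both fold changes was recomputed under 16 other settings. For Cd5 the fold change ran from 0.947 to 1.07 and lay above 1 in 9 settings and below it in 7. For Cd6 it ran from 1.21 to 1.57, was above 1 in all 16, and had an unadjusted p under 0.05 in 9. Adjusted p-values of Cd6 ran from 0.547 to 1.0 over these settings.

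**Figure D5:**
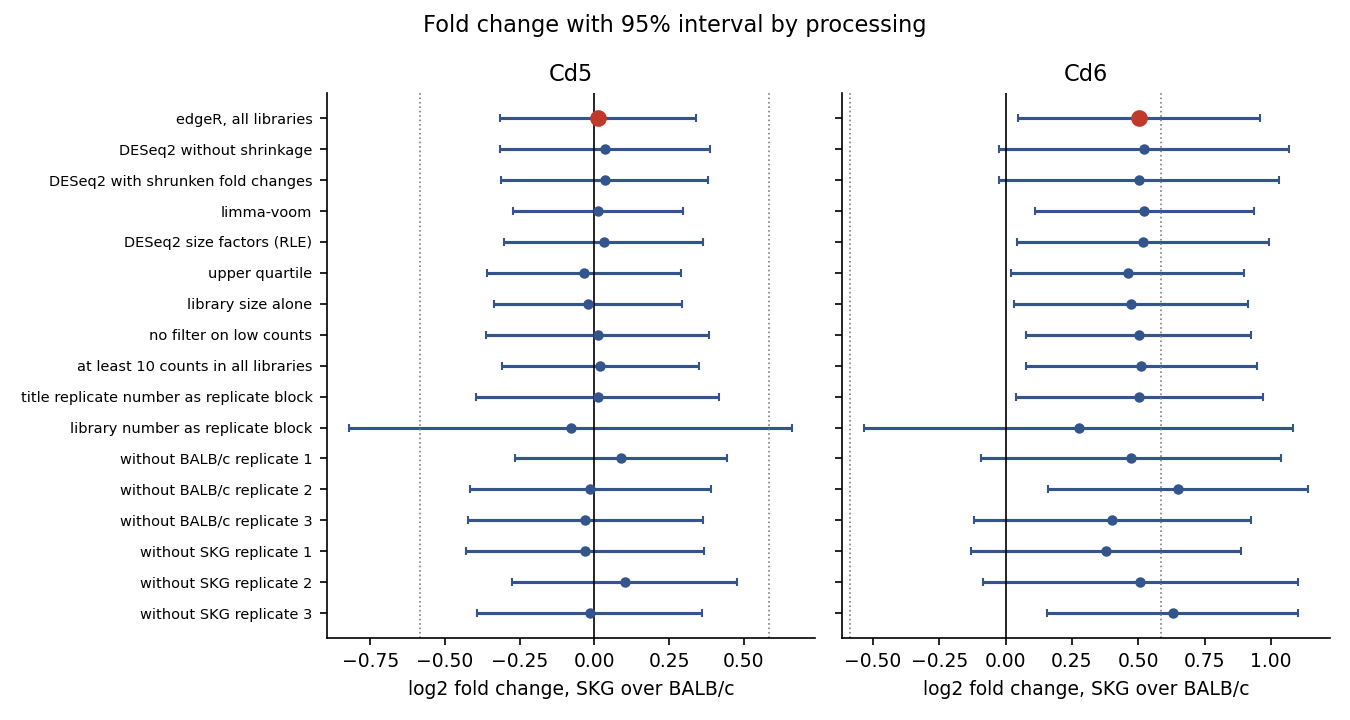
Log2 fold change (SKG over BALB/c) with 95% interval for Cd5 (left) and Cd6 (right) in edgeR on all libraries (red) and in 16 other settings. The solid line marks 0 and the dotted lines a fold change of 1.5 in either direction. Estimates for Cd5 lie between -0.08 and 0.10, and those for Cd6 lie between 0.28 and 0.65.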

How the data were processed

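Polyadenylated RNA of sorted stage 0 iNKT cells was amplified and sequenced as single reads of 50 nt. The study's methods name a SEQR kit with 8 preamplification cycles and the sample labels a SMART-Seq v4 kit with 18. Per the labels and methods, the authors aligned with HISAT2 2.1.0 to GRCm38 (unstranded), then used featureCounts (Subread 1.4.4) with Ensembl exons, discarding reads of mapping quality under 10. The deposited counts are whole numbers, not normalized, and 0 columns were left unused. A second deposited table holds the authors' DESeq2 comparison and was not used. PCR copies cannot be told from separate molecules.

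The main test used edgeR 4.0.16 in R 4.3.3 (filterByExpr by genotype, TMM, quasi-likelihood F test on all 6 libraries without covariates, FDR over 12312 genes). The alternatives were limma-voom (limma 3.58.1), DESeq2 1.42.0, other scalings and filters, both numberings as blocks, and each library left out. Standard errors are the absolute log2 fold change over the square root of F, and 95% intervals use the test's degrees of freedom. log2 CPM used a prior count of 2. The edgeR fit was tested on simulated data. Every simulated gene had the same dispersion. The planted changes were larger than the fitted change of Cd6. The fit called them at a low dispersion and called none at the common dispersion of these libraries. Estimated dispersion differs between real genes, so the simulation does not give the chance of calling Cd5 or Cd6. A count of 0 calls does not show that genes are unchanged. Positions and lengths came from GENCODE M21, promoters from RefSeq. Named genes are both members, Zap70, ligands, CD3 chains, tested neighbours within 150 kb, the 3 lowest p-values of each list, and the 5 genes most alike. Markers of other cell types were kept to sums, and 1 gene that the rule names is not reported here. Ly6c1, Ly6c2, Nr4a1, Nr4a2, Nr4a3, Egr3, Pik3r1, Prss12 and Foxp3 were named after their values were seen. Members and lists were chosen with earlier results of these data known. Same-numbered libraries did not deviate together over the tested genes (residual correlations from -0.15 to 0.003), and the main test did not pair libraries.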

Additional observations from a re-analysis of the deposited data

How the results depend on the processing

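Cd6 kept its direction and stayed uncalled under all alternatives, and Cd5 stayed uncalled while its log2 fold change, 0.01 on all libraries, took either sign. It was -0.035 with upper-quartile factors, -0.020 with library size alone and -0.079 with the library number of the labels as a block, and it lay between -0.033 and 0.10 with 1 library left out. Cd6 lay between 0.38 and 0.65 with 1 library left out. With the replicate number of the titles as a block Cd5 was at 0.01 and Cd6 at 0.50, and with the library number as a block Cd6 was at 0.28; only libraries 2 and 3 are shared by both genotypes, so that block compares those. Neither numbering pairs the libraries, and the blocks changed no call. Cd5 relative to the CD3 chains (0.07) turned to -0.088 against Cd3e alone and -0.011 against Ptprc, and lay between -0.035 and 0.14 with 1 library left out. Cd6 relative to the CD3 chains (0.56) lay between 0.38 and 0.77, and the ratio of Cd5 to Cd6 between -0.66 and -0.40. The mean log2 level of Cd6 over Cd5 per kb turned from -0.16 to 0.51 with the longest coding transcript as the length, an alternative added after seeing the data. It lay between -0.25 and -0.08 with 1 library left out. The median of the TCR readouts (-0.80) lay between -0.85 and -0.54 in all settings. EdgeR called 0 genes, against 370 with DESeq2 without shrinkage, 231 with shrinkage, 2 without a filter on low counts (Susd2 and Gpr83) and 1 with at least 10 counts in all libraries (Susd2), and the cause was not tested. With 3 libraries per genotype, differences in Cd5 within its interval remain compatible with the data.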
